A study of Mus musculus with 22 samples.

Results

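The microRNA (miRNA) miR-210 was followed through small intestine, serum and feces of irradiated and unirradiated mice. Its members were taken by name: every array spot annotated to the guide arm mmu-miR-210-3p or to the opposite arm mmu-miR-210-5p was used. These were 2 of the 1881 mouse miRNAs on the array, read by 4 of its 4415 miRNA probes and by 60 of the 58594 spots of each array. The study set irradiated against unirradiated mice in each kind of sample, on 22 Agilent mouse miRNA arrays, each hybridised with Cy3-labelled RNA of 1 sample. All mice were males aged 8 weeks, and no label gives a strain or a genotype. The irradiated mice had received 10 Gy of X-rays at 1.0 Gy per minute, and the unirradiated mice had received 0 Gy. Small intestine contributed 4 arrays at 10 Gy and 4 at 0 Gy, serum 4 at 10 Gy and 2 at 0 Gy, and feces 4 at 10 Gy and 4 at 0 Gy. The time of collection is not in the labels used here, and neither is whether replicates were separate animals, so p-values reflect only how far these samples spread, which may be technical. The intestinal RNA came from whole tissue, in which fewer cells of a type and less RNA per cell cannot be told apart.

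miR-210 is known in many mammalian cell types as the miRNA whose gene is most regularly induced by the transcription factor HIF-1 when oxygen is scarce. Its guide arm, miR-210-3p, loads into Argonaute and represses transcripts such as those of the iron-sulfur cluster scaffold Iscu, of Gpd1l and of the ephrin Efna3, and so lowers mitochondrial respiration and acts on vessel growth. The opposite arm, miR-210-5p, is usually the less stable strand of the hairpin. Vesicles and protein complexes carry miRNAs into blood and gut contents, where they are measured as extracellular miRNAs.

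The sequences were read from RefSeq on GRCm38.p6 for the hairpin and both arms, because the seed sets which transcripts a miRNA can pair with and because array probes distinguish miRNAs by sequence alone. The Mir210 hairpin lies on the minus strand at chr7:141221384-141221493. The neighbouring genes in the annotation are Lmntd2 and Rassf7 on one side and Gm51460 and Phrf1 on the other, and none of them overlaps it. The hairpin is printed 5′ to 3′ with its 2 mature arms in capitals, the 5p arm at positions 28 to 49 and the 3p arm at positions 66 to 87.
Mir210 hairpin: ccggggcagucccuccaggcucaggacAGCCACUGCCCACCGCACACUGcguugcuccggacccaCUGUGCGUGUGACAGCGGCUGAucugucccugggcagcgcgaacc
In the mature arms the capitals mark the seed, bases 2 to 8.
mmu-miR-210-3p: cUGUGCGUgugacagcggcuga
mmu-miR-210-5p: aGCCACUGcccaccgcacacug

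Both arms were 22 bases long, and their GC content was 63.6% for miR-210-3p and 68.2% for miR-210-5p, against a median of 52.2% over the 1608 array miRNAs with a sequence. Among those 1608 miRNAs, 18.2% had at least the GC content of the 3p arm and 8.1% at least that of the 5p arm. The seed UGUGCGU of miR-210-3p was found in 0 of the other mature sequences of the 1679 compared, at the seed position or anywhere else. The seed GCCACUG of miR-210-5p was shared by 0 of them as a seed, although 5 held it elsewhere. Without gaps, the array miRNA closest to miR-210-3p was miR-7672-5p, with 15 matching bases, and the one closest to miR-210-5p was miR-1188-3p, also with 15. No seed family member on the array could therefore be set beside miR-210.

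The arrays differed in ways that bear on every value of miR-210. Detection of a miRNA required that, for 1 or more probes, 50% of the spots or more be well above background. Intestinal arrays detected 332 to 389 miRNAs at 10 Gy and 285 to 300 at 0 Gy, serum arrays 131 to 176 at 10 Gy and 175 to 219 at 0 Gy, and fecal arrays 445 to 494 at 10 Gy and 378 to 675 at 0 Gy. The highest of these, 675, was 0 Gy fecal replicate 3, followed by 0 Gy fecal replicate 4 at 585. No spot was saturated on any array. Feces, intestine and serum were each hybridised on a slide of their own, which means that the sample type cannot be told apart from its slide. On each slide the doses lay in separate columns, and a dose cannot be told apart from its columns either. Each slide row held both doses. The tissue label was checked against its markers: all 8 of 8 intestinal epithelial miRNAs were detected on every intestinal array at both doses, and in serum only miR-375-3p of the 8 was detected. In feces 7 of the 8 were detected on every array and all 8 on at least 1 array at each dose, so their detection did not separate feces from intestine. Their summed level was 48.3 to 137 times the array's 75th percentile on intestinal arrays and 0.715 to 5.47 times on fecal arrays, each on the scale of its own sample type. The liver miRNA miR-122-5p was detected on no array.

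In small intestine, miR-210-3p was higher after irradiation by both of its probes. The signal of the 3p arm, summed over its 2 probes after the background subtraction of the scanner software, was 66.5, 51.3, 78.2 and 56.5 intensity units on the 10 Gy arrays, against 26.1, 23.0, 29.8 and 25.9 on the 0 Gy arrays. The lowest irradiated array was above the highest unirradiated one. The means were 63.1 ± 11.9 at 10 Gy and 26.2 ± 2.79 at 0 Gy (SD, n = 4 each), a ratio of 2.41. An exact two-sided permutation test gave p = 0.0286, the smallest value that 4 against 4 arrays allow. These signals were not corrected for the brightness of each array.

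Part of that ratio was shared by the rest of the array. Each value was therefore set relative to the 75th percentile of its array, computed from the 268 miRNAs that all intestinal arrays detected. That percentile was 553 to 880 intensity units at 10 Gy and 439 to 538 at 0 Gy. As a percentage of it, miR-210-3p stood at 12.03%, 7.77%, 8.88% and 8.51% on the 10 Gy arrays and at 5.94%, 4.75%, 5.54% and 5.01% on the 0 Gy arrays. The doses still did not overlap, and the 10 Gy arrays were spread more widely than the 0 Gy arrays, with replicate 1 the highest of them.

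On the log2 scale of these scaled values the mean was -3.45 ± 0.27 at 10 Gy and -4.24 ± 0.14 at 0 Gy (SD, n = 4 each). The change was 0.79 with a standard error (SE) of 0.18, which is 1.73-fold, with a 95% interval of 0.40 to 1.19. In limma over 335 detected miRNAs its Benjamini-Hochberg adjusted p was 0.00534. The background for this call was high: 41.8% of the miRNAs tested passed an adjusted p of 0.05, 26% passed and were higher, 39.4% showed no overlap between the doses, and 23.6% did so with the irradiated arrays higher. miR-210-3p ranked 53 from the highest change. The median change over all 335 was 0.16, so miR-210-3p stood 0.63 above that median.

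**Figure D1:**
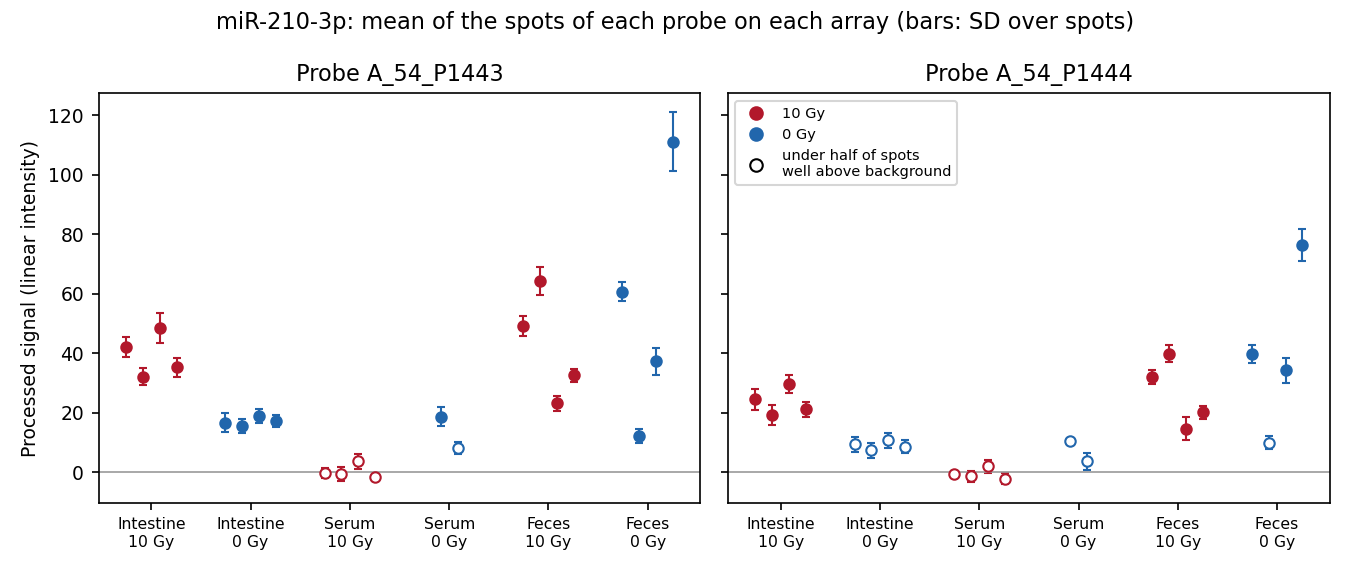
Background-subtracted signal (linear intensity units) of each miR-210-3p probe on every array, by sample type and dose. Points are arrays, with bars for the SD over the spots of that probe; the open points mark arrays on which the probe was not well above background. In intestine both probes were brighter at 10 Gy, in serum only 1 probe on 1 array at 0 Gy was above background, and in feces the doses overlapped.

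The 2 probes of miR-210-3p are spread over 15 spots each, and they differed in how far above background they were. Probe A_54_P1443 read 42.0, 32.1, 48.5 and 35.3 intensity units on the 10 Gy intestinal arrays and 16.7, 15.6, 19.0 and 17.2 on the 0 Gy arrays. It was well above background in 60 of 60 spots at 10 Gy and in 55 of 60 at 0 Gy, so it was measured at both doses. Its change was 0.73 ± 0.17 (log2, SE), with an adjusted p of 0.00805 in limma over 607 probes.

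Probe A_54_P1444 read 24.5, 19.2, 29.7 and 21.2 intensity units on the 10 Gy intestinal arrays and 9.40, 7.43, 10.8 and 8.65 on the 0 Gy arrays. It was well above background in 58 of 60 spots at 10 Gy but in only 4 of 60 at 0 Gy. It was thus detected on 4 of 4 irradiated and on 0 of 4 unirradiated arrays, and only a bound on its change could be had. On the scaled values it was at least 1.36-fold higher at 10 Gy. For each 0 Gy array this took the higher of the probe's own signal and the lowest signal of a probe well above background. The bound holds for that scaling only and was not computed with any other. In the fit its 0 Gy values were all set to the same floor for low signals, which left no spread at that dose. Its adjusted p of 0.0104 in limma therefore adds nothing to the bound.

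The intensities behind these signals were low. The median spot of A_54_P1443 had an intensity of 74.0 to 95 on the 10 Gy arrays and of 61.0 to 66.0 on the 0 Gy arrays before any subtraction, over a local background of 18.0 to 20.0 at both doses. The intestinal result did not hold when values were recomputed from median spot and local background intensities by normexp. With an offset of 50 units added to each spot, which compresses log changes of signals this low, the change of miR-210-3p was -0.09 (adjusted p = 0.476 in limma), at a median of -0.15 over all miRNAs. Without an offset, an alternative added after seeing the data, it was 0.20 (adjusted p = 0.342), at a median of -0.09. It also fell short of the threshold when arrays were scaled by the percentile over all miRNAs (0.28, adjusted p = 0.526) or by quantiles (0.51, adjusted p = 0.0849). The median over all miRNAs was -0.35 with the first and 0.01 with the second, so miR-210-3p stood 0.63 and 0.51 above it.

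**Figure D2:**
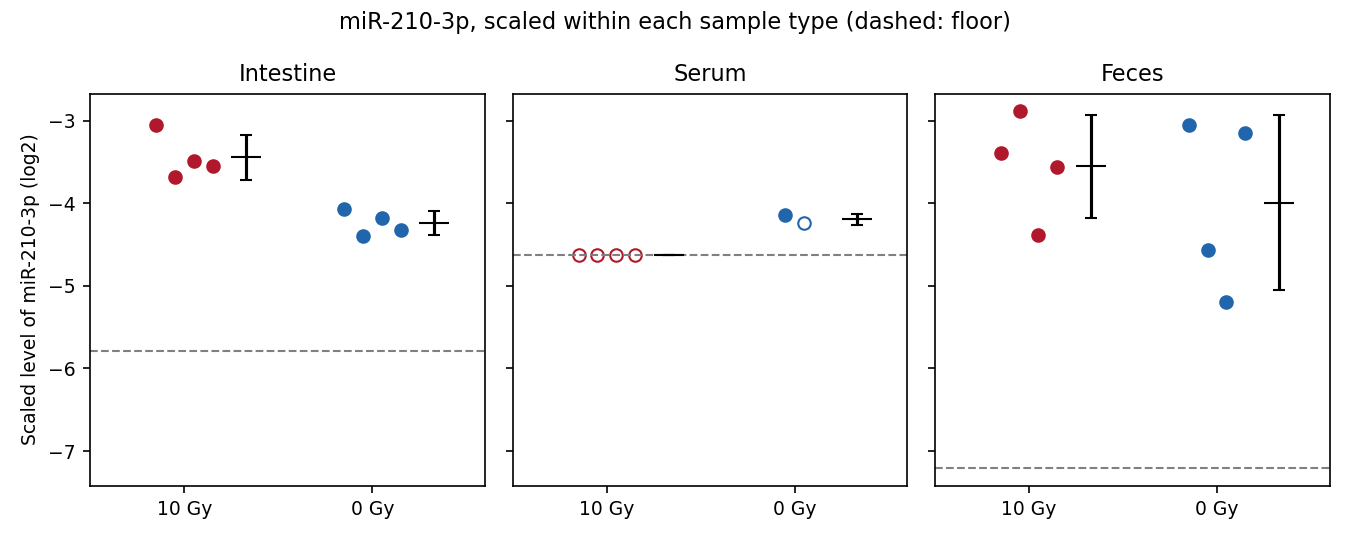
Scaled level of miR-210-3p (log2 of the signal over the array's 75th percentile) on each array within each sample type, 10 Gy left and 0 Gy right. Filled points are arrays on which it was detected, crosses with bars are the mean ± SD and the dashed line is the floor; the 4 irradiated intestinal arrays all lie above the 4 unirradiated ones, and all irradiated serum arrays lie at the floor.

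Markers of the cells in the intestinal wall also differed between the doses. The 8 epithelial miRNAs summed to 48.3 to 90.2 times the array's 75th percentile at 10 Gy and to 96.6 to 137 times at 0 Gy, and 4 of the 8 fell by limma, where 15.8% of all miRNAs tested were lower and 26% higher. Smooth muscle and mesenchymal miRNAs summed to 6.30 to 8.85 at 10 Gy and 5.26 to 6.67 at 0 Gy, and of the 6 the fibroblast-rich miR-199a-3p and miR-214-3p rose. The 5 leukocyte miRNAs summed to 2.40 to 2.84 at 10 Gy and 2.28 to 3.79 at 0 Gy. Of these the myeloid miR-223-3p rose, while the lymphocyte-rich miR-150-5p and both arms of miR-142a fell. Detection of miR-150-5p was on 1 of 4 arrays at 10 Gy and 4 of 4 at 0 Gy. Its 10 Gy log2 mean of -5.59 lay near the floor of -5.79. The 2 arms of the endothelial miR-126a summed to 2.65 to 4.20 at 10 Gy and to 2.42 to 2.63 at 0 Gy, and the 1 arm tested did not pass. The 3 erythrocyte miRNAs summed to 0.243 to 0.540 at 10 Gy and 0.229 to 0.384 at 0 Gy, with miR-486a-5p higher and miR-144-3p undetected. Detection of miR-486a-5p was on 4 of 4 arrays at 10 Gy and 0 of 4 at 0 Gy. It entered the fit only through the 10 Gy arrays, so its call rests partly on the filter and the floor. The part of these cell types in the miR-210-3p result was not tested.

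In serum, miR-210-3p was not well above background on any irradiated array. Its summed signal was -0.883, -1.88, 5.63 and -3.89 intensity units on the 10 Gy arrays, against 29.2 and 11.8 on the 0 Gy arrays. Both unirradiated arrays read higher than all irradiated ones. Probe A_54_P1443 was well above background in 0 of 60 spots at 10 Gy and in 16 of 30 at 0 Gy, and 15 of these 16 were on replicate 1. Probe A_54_P1444 passed in 1 of 60 spots at 10 Gy and 1 of 30 at 0 Gy. By the detection rule, miR-210-3p was detected on 0 of 4 irradiated arrays and on 1 of 2 unirradiated ones. The scanner software's own detection flag was set on 0 of 4 irradiated arrays and on 2 of 2 unirradiated ones.

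Too few serum arrays detected miR-210-3p for it to enter the limma fit of serum, in which 4.66% of 193 miRNAs passed. After scaling, the 10 Gy arrays had -0.287%, -1.25%, 2.17% and -3.04% of their 75th percentile and the 0 Gy arrays 5.65% and 5.29%, with a floor of 4.04% below which values have no order. With the 10 Gy arrays at that floor the difference on the log2 scale was -0.44. No fold is given, since the bound on it came out under 1. The exact two-sided permutation test gave p = 0.0667, the smallest that 4 against 2 arrays allow, and 30.1% of the serum miRNAs tested did not overlap between the doses.

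Overall brightness also differed between the serum arrays, with a 75th percentile of 128 to 308 intensity units at 10 Gy and 224 to 517 at 0 Gy. The part of brightness in the miR-210-3p signal was not tested. The erythrocyte miRNAs moved with dose in serum too. They summed to 5.61 to 8.08 times the 75th percentile at 10 Gy and to 17.5 to 20.6 times at 0 Gy, and both of those tested, of 3, were lower at 10 Gy by limma, where 3.63% of serum miRNAs were lower. Of the 3, miR-451a was detected on 1 of 4 serum arrays at 10 Gy and 2 of 2 at 0 Gy, and miR-144-3p was undetected in serum. The 1 epithelial miRNA tested in serum, miR-375-3p, was higher at 10 Gy by 2.61 ± 0.47 (log2, SE; adjusted p = 0.0280 in limma). Of the smooth muscle and mesenchymal miRNAs 3 were tested in serum, and of the leukocyte miRNAs 1, and 0 passed. The part of erythrocyte or epithelial RNA in the miR-210-3p signal was not tested either.

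In feces, miR-210-3p was detected on all 8 arrays, and the doses overlapped. Its summed signal was 81.2, 104, 37.9 and 52.7 intensity units on the 10 Gy arrays and 100.5, 22.2, 71.5 and 188 on the 0 Gy arrays. The lowest and the highest of the 8 arrays were both unirradiated. The means were 69.0 ± 29.5 at 10 Gy and 95.5 ± 69.4 at 0 Gy (SD, n = 4 each), a ratio of 0.723 with p = 0.6 by an exact two-sided permutation test.

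Scaling changed the order of the means in feces. As a percentage of each array's 75th percentile, miR-210-3p stood at 9.52%, 13.5%, 4.79% and 8.50% at 10 Gy and at 11.99%, 4.20%, 2.72% and 11.2% at 0 Gy. The log2 means were -3.56 ± 0.62 at 10 Gy and -3.996 ± 1.06 at 0 Gy (SD, n = 4 each). The change of 0.44 ± 0.53 (SE) had a 95% interval of -0.76 to 1.64 and an adjusted p of 0.555 in limma over 491 miRNAs. Of those, 7.54% passed, and miR-210-3p ranked 193 from the highest change. The interval holds both no change and a change of the size seen in intestine.

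Each probe gave a like picture in feces. A_54_P1443 averaged 42.3 ± 18.2 intensity units at 10 Gy and 55.4 ± 42.2 at 0 Gy, with 60 of 60 spots well above background at 10 Gy and 53 of 60 at 0 Gy. Its scaled change was 0.55 ± 0.55 (log2, SE; adjusted p = 0.479 in limma). A_54_P1444 averaged 26.7 ± 11.4 at 10 Gy and 40.1 ± 27.4 at 0 Gy (SD, n = 4 each), with 56 of 60 spots above background at 10 Gy and 47 of 60 at 0 Gy. Its change was 0.24 ± 0.46 (adjusted p = 0.726 in limma). Without the array that detected most miRNAs, 0 Gy replicate 3, the change of miR-210-3p was 0.04 (adjusted p = 0.953). Leaving out each other fecal array in turn gave 0.24 to 0.77, none passing.

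**Figure D3:**
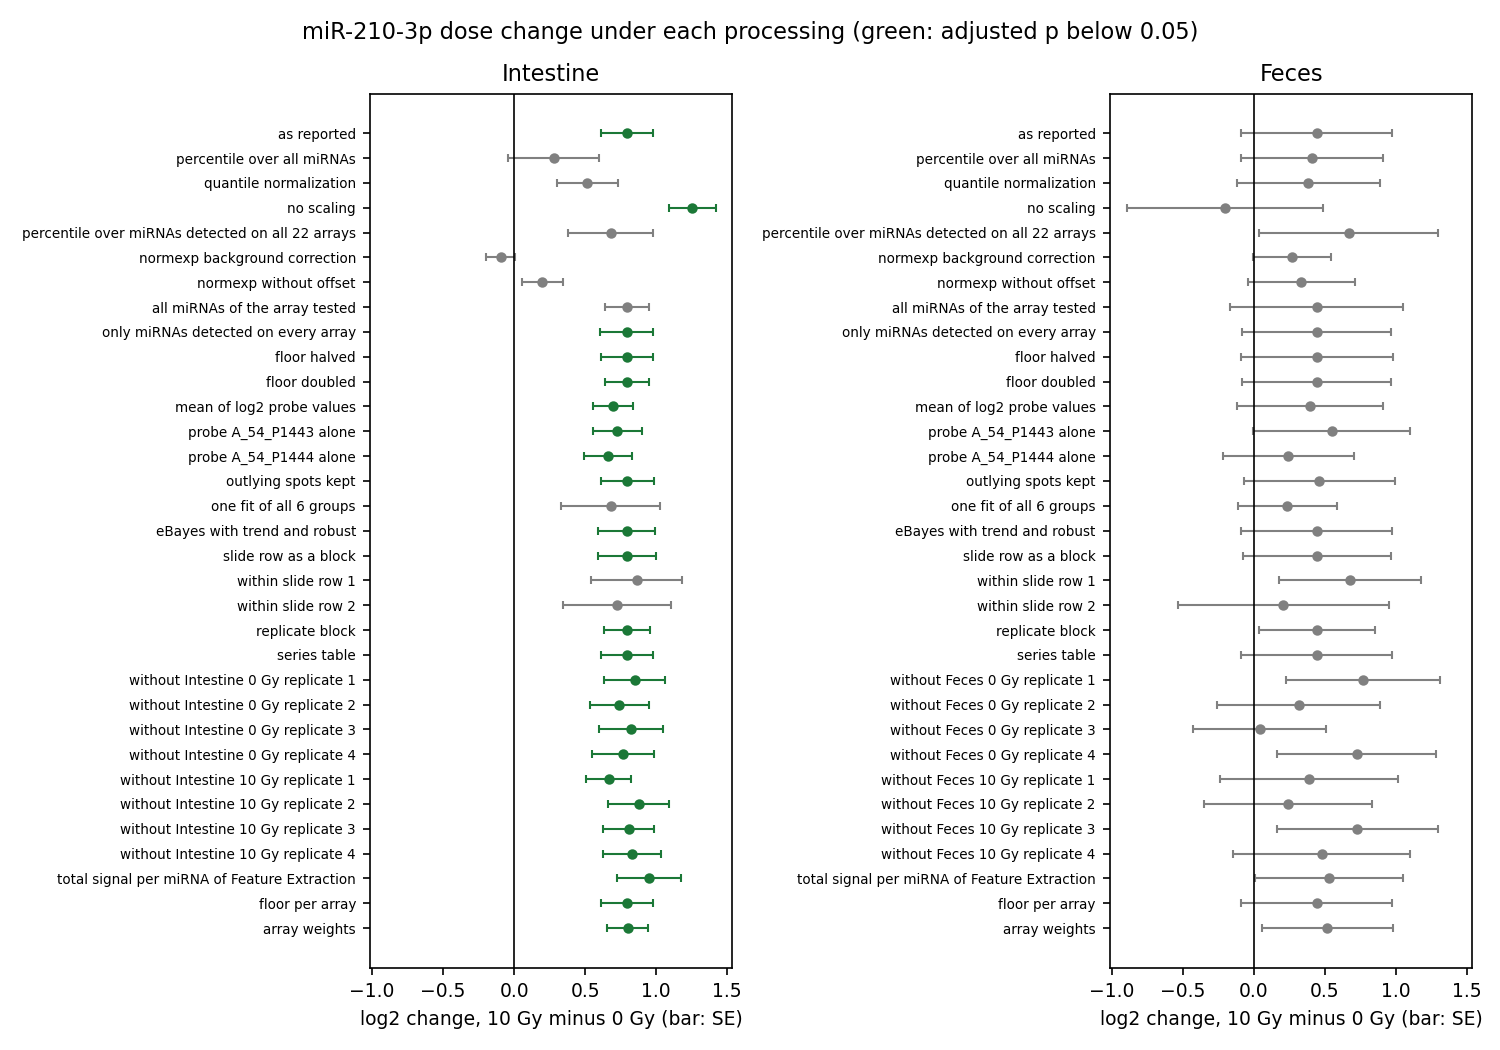
Change of miR-210-3p (log2, 10 Gy minus 0 Gy, bars for the SE) in intestine and feces under each way of processing the values; green points had an adjusted p below 0.05. In intestine the change lay between -0.09 and 1.26 and was below 0 only with normexp and an offset of 50; in feces it passed under none.

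The opposite arm, miR-210-5p, was almost everywhere at background. Over all 22 arrays, 13 of the 660 spots of its 2 probes were well above background. Of these, 12 belonged to probe A_54_P00005066 on 1 array, 0 Gy fecal replicate 3, where 12 of 15 spots passed. That probe read 16.4 intensity units there, against 2.41, 0.860 and 0.783 on the other 0 Gy fecal arrays. The irradiated fecal arrays read -0.467, -0.570, -3.59 and -3.31. Its second probe, A_54_P00005067, read 7.21 on the same 0 Gy array with 0 of 15 spots above background, and -1.41 to 0.0235 on the irradiated fecal arrays.

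The array with the only detection of miR-210-5p was the brightest fecal array, with a 75th percentile of 2627 intensity units against 529 to 1668 on the others. It had the lowest scaled level of miR-210-3p among the fecal arrays, 2.72%. In intestine probe A_54_P00005066 averaged -2.20 ± 1.23 intensity units at 10 Gy and -3.17 ± 0.998 at 0 Gy (SD, n = 4 each), with 0 of 60 spots above background at either dose. In serum it averaged -2.07 ± 0.607 at 10 Gy (SD, n = 4) and -2.48 ± 1.39 at 0 Gy (SD, n = 2). miR-210-5p was therefore tested in no sample type and is given no fold. Levels of the 2 arms are not set against each other, because each probe has a response of its own.

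**Figure D4:**
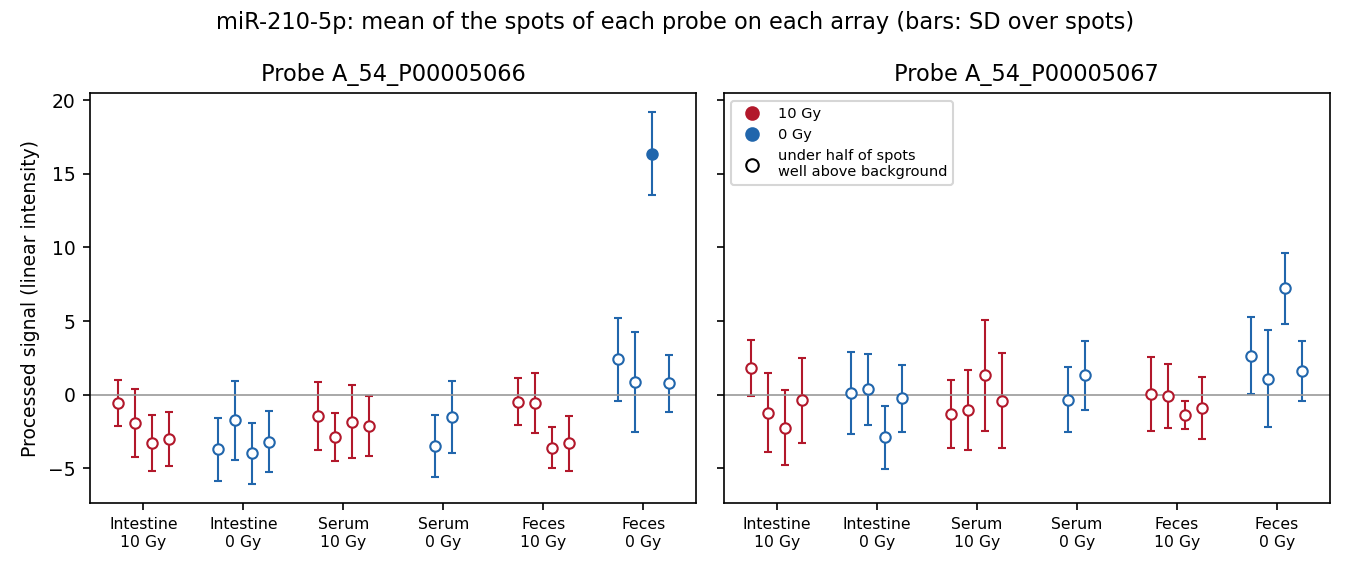
Background-subtracted signal (linear intensity units) of each miR-210-5p probe on every array, by sample type and dose, with bars for the SD over its spots and open points where it was not well above background. The 1 filled point is 0 Gy fecal replicate 3 at 16.4.

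Across sample types, the level of miR-210-3p was set on a common scale, each array's 75th percentile over 81 miRNAs that all 22 arrays detected. On that log2 scale irradiated intestine stood highest at -3.75 ± 0.59 (SD, n = 4), before unirradiated intestine at -4.43 ± 0.16 (SD, n = 4) and unirradiated serum at -4.83 ± 0.15 (SD, n = 2). Irradiated feces followed at -5.58 ± 0.66 (SD, n = 4), with 1 array at the floor of -6.41, and unirradiated feces at -5.81 ± 0.70 (SD, n = 4), with 2 arrays at the floor. Irradiated serum has no place in this order, because its probes were detected on no array. Its value of -6.34 ± 0.16 (SD, n = 4), with 3 arrays at the common floor, became -5.003 ± 0.36 with each array's own floor, beside -5.62 ± 0.73 for irradiated feces and -6.29 ± 1.33 for unirradiated feces on that footing. In 1 limma fit of all 6 groups over 749 miRNAs, differences between the dose groups of intestine (0.68 ± 0.35, adjusted p = 0.269) and of feces (0.23 ± 0.35, adjusted p = 1) did not pass. Serum minus intestine at 0 Gy was -0.40 ± 0.43 (SE; adjusted p = 0.585) and did not pass either, where 46.5% of miRNAs did.

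Feces stood below intestine on this scale. The difference was -1.83 ± 0.35 at 10 Gy (adjusted p = 0.000161 in limma) and -1.38 ± 0.35 at 0 Gy (adjusted p = 0.00201), where 58.9% and 59.5% of miRNAs passed in either direction, and 36.2% and 35.2% passed and were lower. That order rested on the scaling: with quantiles the differences were -0.56 at 10 Gy and -0.50 at 0 Gy and did not pass, and with no scaling they were 0.04 at 10 Gy and 1.504 at 0 Gy. Feces minus serum did not pass at 10 Gy (0.76 ± 0.35, adjusted p = 0.0877) or at 0 Gy (-0.98 ± 0.43, adjusted p = 0.0832), and 46.2% and 38.6% of miRNAs passed. Serum minus intestine at 10 Gy was -2.59 ± 0.35 (adjusted p = 3.86e-06), against 57.1% of miRNAs passing and 35.4% passing and lower. It was -1.26 with each array's own floor (adjusted p = 0.0262), 0.31 with normexp and an offset of 50 (adjusted p = 0.122), and -1.16 with normexp and no offset (adjusted p = 7.57e-06). Since irradiated serum was below detection, only a bound was measured. On this scale alone, probe A_54_P1443 was at least 1.41-fold lower in irradiated serum than in irradiated intestine. No bound could be given by the other probe.

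In the same fit, the contrast between the dose changes of serum and intestine passed with the common floor, although no irradiated serum array detected miR-210-3p. The change in serum minus that in intestine was -2.19 ± 0.55 (log2, SE; adjusted p = 0.0188 in limma), a contrast in which 7.74% of miRNAs passed and 6.28% were lower. Its size and its call followed how undetected serum values were set, so it is not a measured difference. With each array's own floor it was -0.85 (adjusted p = 0.385 in limma). With normexp it was 0.57 with an offset of 50 (adjusted p = 0.0765) and -0.46 without an offset (adjusted p = 0.186). Without 0 Gy serum replicate 1, the one serum array that detected miR-210-3p, it was -1.91 (adjusted p = 0.0870). The change in feces minus that in intestine was -0.45 ± 0.49 (adjusted p = 0.647) and did not pass, where 10.9% of miRNAs did. Its size too followed the floor, to which some fecal arrays were raised. It was -0.14 with the floor halved, -0.63 with it doubled and -0.01 with each array's own floor, and passed with none.

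Of 17 other miRNAs reported to respond to low oxygen, all tested in intestine, 5 were higher and 3 lower at 10 Gy by limma. These counts are near the background, in which 26% of all miRNAs tested were higher and 15.8% lower, and say nothing particular to the list. The list was not split by the direction reported under low oxygen. Their median change was 0.01 against 0.16 for all. The highest was miR-199a-5p, reported to repress Hif1a in cardiomyocytes, at 0.82 ± 0.18 (log2, SE; adjusted p = 0.00441). Also higher were miR-24-3p at 0.58, miR-27a-3p at 0.57 and miR-23a-3p at 0.54, while miR-23b-3p at -0.01 did not pass. The growth-promoting miR-21a-5p rose by 0.55. The 3 lower ones were miR-20b-5p, of a cell-cycle cluster, at -0.74 (adjusted p = 0.00878), the epithelial miR-429-3p at -0.56 and miR-103-3p, which acts on metabolism and Dicer, at -0.54.

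These directions followed the scaling. With the percentile over all miRNAs 0 of the 17 were higher and 4 lower, where 21 of all 335 were higher and 86 lower. With quantiles 4 were higher and 4 lower, where 55 of the 335 were higher and 66 lower. With no scaling 10 were higher and 0 lower, where 186 of the 335 were higher and 13 lower. In feces, 13 of the 17 were tested and 0 passed in limma. Of these, 1 had an unadjusted p below 0.05, miR-181a-5p, which was lower (-1.65 ± 0.51, adjusted p = 0.0742). The median change of the 13 was 0.82 against 0.15 for all miRNAs, and that of the 8 epithelial miRNAs was 0.71. In serum, 3 were tested and 0 passed, 1 of them, miR-24-3p, with an unadjusted p below 0.05 (2.19 ± 0.52, adjusted p = 0.0617), and the median change was 0.63 against -0.11 for all. No oxygen measurement was used here.

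**Figure D5:**
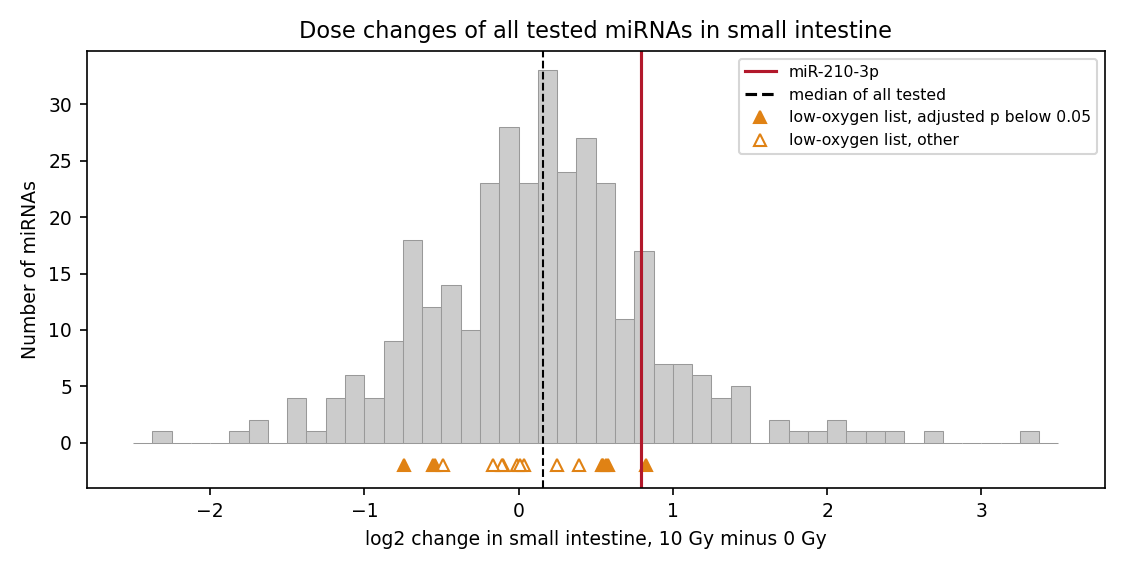
Number of miRNAs by their change in small intestine (log2, 10 Gy minus 0 Gy) over the 335 tested, with the red line for miR-210-3p at 0.79 and the dashed line for the median of 0.16. Triangles under the bars are the 17 low-oxygen miRNAs, filled where the adjusted p was below 0.05: 5 lie to the right and 3 to the left.

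The miRNAs whose pattern was most like that of miR-210-3p were sought among the 132 others detected on at least 17 arrays. Likeness was the root mean square (RMS) difference of scaled log2 values over the 22 arrays, each miRNA centred on its own mean. The closest were miR-3473g at 0.58, miR-6378 at 0.72, miR-181b-5p at 0.75, miR-3620-5p at 0.78 and miR-3102-5p at 0.83, where the median of the 132 was 1.74. The points share the slides and the array scaling. Like miR-210-3p, miR-3102-5p was higher in irradiated intestine, by 1.70 ± 0.21 (log2, SE; adjusted p = 6.71e-05 in limma), and neither passed in feces. The other 4 did not pass in intestine, where their changes ran from -0.60 for miR-6378 to 0.37 for miR-3473g.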

How the data were processed

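Cy3-labelled RNA of 22 samples was read on 1-colour Agilent arrays. Per the submitters' processing notes and the file headers, the authors used Agilent Feature Extraction 11.5, and the deposited intensity, the background-subtracted processed signal, was not normalized between arrays. The deposited flags (score of 0 or 1, per the file headers) mark spots well above background, saturated or outlying. The deposited series table holds the same processed intensity.

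For each array, non-outlying spots were averaged per probe and summed per miRNA. Each sum was set relative to the 75th percentile of its array, computed from miRNAs that every array of the sample type detected (268 for intestine, 121 for serum, 326 for feces, 81 for all 22). Before log2 a floor was set: the lowest scaled signal among detected miRNAs of an array, as a median of all arrays. Doses were compared with limma 3.58.1 in R 4.3.3 over miRNAs whose number of detecting arrays reached the size of the smaller group. Levels and differences between types came from 1 fit of 6 groups. Benjamini-Hochberg adjustment was used with a threshold of 0.05. The scripts were tested on simulated data. The number of arrays limits the precision.

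The members, the low-oxygen list, the marker lists (from textbook knowledge) and the rule for the most alike miRNAs were chosen with earlier results of these data known. Alternatives were the scaling, background correction (normexp with an offset of 50), floor, detection filter, probes, fit, slide row, replicate number as a block, and each array left out. The software's total signal per miRNA, a floor per array, array weights and normexp without an offset were added after seeing the data. Same-numbered samples did not all deviate together in intestine (correlations of -0.56 to 0.44) or feces (-0.43 to 0.40). In serum both pairs correlated (0.28 and 0.44) and each matched its own number best. These are not separate observations, because the deviations of 2 unirradiated arrays from their own mean are equal and opposite. With 2 pairs and no label that ties the numbers, same-numbered samples were not taken as pairs in any sample type.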

Additional observations from a re-analysis of the deposited data

Results flagged for a closer look

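The only detection of miR-210-5p drew attention because 1 array stood far from the others of its group. On the scaled log2 scale the gap of 0 Gy fecal replicate 3 to the nearest of the 4 unirradiated fecal arrays was 1 times the group's range, since the other 3 were at the floor. For probe A_54_P00005066 the same array's processed signal of 16.4 intensity units gave a gap of 0.896 of the range. Both exceed Dixon's 95% critical value for 4 samples. The first could not have come out otherwise, because any 1 value above 3 tied ones gives a ratio of 1. Both flags rest on the same array and share a probe, so they are not separate results. Over the 30 groups tested, chance alone would mark about 1 group in 20 among untied values, a rate that does not hold for groups tied at the floor. This array also detected more miRNAs (675) than any other fecal array. The part of its brightness in the miR-210-5p signal was not tested.

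The dose change of miR-210-3p in serum differed from that in intestine by -2.19 on the log2 scale by limma's interaction term. All 4 irradiated serum arrays were below detection in it, so the size is set by the floor, and with each array's own floor it did not pass.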

How the results depend on the processing

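The intestinal change of miR-210-3p kept its direction and its call in 24 of 33 alternatives, 8 of which left out 1 array. Of the alternatives that changed the scaling or the background correction, it passed only with no scaling (1.26). It kept its direction without passing with the percentile over all miRNAs (0.28), quantiles (0.51), normexp without an offset (0.20), the percentile over the miRNAs of all 22 arrays (0.68), all miRNAs of the array tested (0.79), 1 fit of all groups (0.68) and within slide row 1 (0.86) or 2 (0.72), which hold fewer arrays. It reversed with normexp and an offset of 50 (-0.094), and the reason was not tested. Leaving out 1 array gave 0.67 to 0.88, all passing. With the replicate number as a block the adjusted p was 0.00817 in intestine and 0.45 in feces by limma, and the block changed no call. In feces 32 of 33 alternatives kept the direction, none passed, no scaling reversed it (-0.21), and leaving out 1 array gave 0.04 to 0.77.

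The serum difference of -0.44 moved to -0.60 with the percentile over all miRNAs, -0.51 with quantiles, -1.14 without scaling, 0.10 with normexp and the offset, -0.082 with normexp without it, -1.41 with the floor halved, 0 with it doubled, with log2 probe means or with either probe alone, -1.51 in 1 fit of all groups, -0.71 with the software's total signal and -0.15 with a floor per array. Leaving out 1 array gave -0.53 to -0.36. Without 0 Gy replicate 2 it was -0.44, and no p-value is given, since 1 unirradiated array was left and the irradiated arrays were at the floor. It could not be fitted over miRNAs detected on every array.

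Between sample types, the percentile over all miRNAs gave -0.76 at 10 Gy and -0.89 at 0 Gy for feces minus intestine, 1.39 at 10 Gy and -1.27 at 0 Gy for feces minus serum, 0.38 for serum minus intestine at 0 Gy, and 0.13 for the feces minus intestine difference in dose change. Quantiles gave -0.56 at 10 Gy and -0.50 at 0 Gy for feces minus intestine, 1.44 at 10 Gy and -1.29 at 0 Gy for feces minus serum, and 0.79 for serum minus intestine at 0 Gy. No scaling gave 0.042 at 10 Gy and 1.504 at 0 Gy for feces minus intestine, and 2.87 at 10 Gy and 1.99 at 0 Gy for feces minus serum. Normexp with the offset gave, at 10 Gy, -0.36 for feces minus intestine, 0.31 for serum minus intestine and -0.67 for feces minus serum, and 0.57 and 0.18 for the dose changes of serum and feces minus that of intestine. Normexp without an offset gave -0.46 for the serum minus intestine difference in dose change, -0.70 for serum minus intestine at 0 Gy and -0.031 for feces minus serum at 10 Gy. The floor halved gave 1.47 for feces minus serum at 10 Gy. A floor per array, added after seeing the data, gave -0.61 at 10 Gy and -1.46 at 0 Gy for feces minus serum and -0.85 for the serum minus intestine difference in dose change. The cause was not tested for any of these.

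Leaving out 1 array gave -2.53 to -1.91 for the serum minus intestine difference in dose change and -0.75 to -0.12 for that of feces. For feces minus intestine it gave -2.02 to -1.55 at 10 Gy and -1.58 to -0.998 at 0 Gy, for serum minus intestine -2.93 to -2.49 at 10 Gy and -0.51 to -0.29 at 0 Gy, and for feces minus serum 0.40 to 1.06 at 10 Gy and -1.22 to -0.64 at 0 Gy. Feces minus serum passed at 10 Gy without fecal 10 Gy replicate 3 (0.87, adjusted p = 0.0289 in limma) and at 0 Gy without fecal 0 Gy replicate 1 (-1.03, adjusted p = 0.0492) or 4 (-1.04, adjusted p = 0.0414). The count of miRNAs called ran from 32 to 199 in intestine, 0 to 24 in serum and 0 to 172 in feces over these alternatives, each time per miRNA and not per probe, against 140, 9 and 37. Low signal limits the values of miR-210.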
